A study of Mus musculus with 2 samples.

Results

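The 8 genes described here are *Tnf*, *Il6* and *Il10*, which encode cytokines, *Tnfrsf1b*, which encodes the TNF receptor TNFR2, *Nfkb1*, which encodes a subunit of the transcription factor NF-kB, and *Nfkbia*, *Nfkbiz* and *Tnfaip3*, which encode inhibitors and modulators of NF-kB. They were taken by their symbols and make up 8 of the 55386 features counted in each library. CD45-positive immune cells were sorted from the adventitia, the outer layer, of the mouse aorta, and transcripts of single cells were counted in 2 droplet libraries (10x Genomics 3′ chemistry). Both libraries came from mice of the strain RankCreRosa26eYFP at an age of 16 weeks, in which cells that express *Rank*, and their descendants, are marked by Cre with a yellow fluorescent reporter. The steady state library pooled 3 animals that had received no treatment, and the AngII library pooled 2 animals that had received angiotensin II, a hormone that raises blood pressure and inflames the arterial wall, at 1.8 µg/kg/min from osmotic pumps for 10 days. With 1 library per condition, animals within a library could not be separated, no test between conditions was possible, and the effects of the hormone, of the pump and of the library cannot be told apart.

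NF-kB is held in the cytoplasm by IkB proteins, of which IkBα, the product of *Nfkbia*, is the best known. Signals through TNF receptors, Toll-like receptors or the IL-1 receptor lead to the degradation of IkBα, and freed NF-kB then switches on inflammatory genes such as *Tnf* and *Il6*. The same factor also switches on its own brakes, among them *Nfkbia* and *Tnfaip3*, whose product A20 removes and edits ubiquitin chains on the signalling complex, while IkBζ, the product of *Nfkbiz*, acts in the nucleus and is needed for the induction of *Il6*. IL-10 is a cytokine that limits the output of inflammatory cytokines from macrophages.

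The promoters of these genes are shown because the feedback runs through NF-kB sites close to the start of transcription. Promoters of 5 of the 8 genes were matched in RefSeq (GRCm38.p6), and the 250 bases before the start were searched on both strands for the kappaB consensus, the 10-base motif bound by NF-kB. The lines below give the matches of *Il6* (chr5:30013030-30013113, plus strand, motif at positions -44 to -35 from the start), *Nfkbia* (chr12:55492648-55492716, minus strand, -29 to -20) and *Tnfaip3* (chr10:19015516-19015545 and chr10:19015411-19015432, minus strand, -125 to -116 and -12 to -3). The RefSeq start used for the *Tnfaip3* matches lies downstream of the 5′ end of the gene in GENCODE (chr10:19015657). Both *Tnfaip3* sites therefore lie inside the gene as annotated there. Each match is written 5′ to 3′ on the strand of the gene, with the motif in capitals.
Il6: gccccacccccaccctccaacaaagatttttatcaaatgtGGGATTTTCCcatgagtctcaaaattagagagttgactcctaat
Nfkbia: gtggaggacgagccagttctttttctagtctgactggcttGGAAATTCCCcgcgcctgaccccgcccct
Tnfaip3, first site: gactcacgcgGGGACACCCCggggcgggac
Tnfaip3, second site: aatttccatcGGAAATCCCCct
A match was found in 3.90% of the 32851 RefSeq promoters, and these letters were not in this window of *Tnf*, *Tnfrsf1b* or a second start of *Tnfaip3*. The other genes, *Il10*, *Nfkbiz* and *Nfkb1*, had no entry.

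Levels are given as CPM, the UMIs (unique molecules) of a gene summed over the cells of a class and scaled to 1e6 UMIs of all genes in those cells. Intervals have a level of 95% and, here and below, cover counting error only. After the filter on genes and mitochondrial UMIs, 306 cells at steady state and 4198 on AngII were kept, with a median depth of 9105 and 1092 UMIs. The libraries shared 0 barcodes. Each cell was placed in a class by marker genes, which left 33 and 612 cells with markers of several classes and 4 and 274 cells with too few markers. Macrophage-like cells numbered 107 and 1836, and held 5742 and 3921 CPM of the complement gene *C1qa*, against 10.7 and 77.3 CPM in B cell-like cells and 14.6 and 162 CPM in T cell-like cells. *Ptprc*, the gene of CD45, was found at 912 and 830 CPM over all kept cells. Macrophage-like cells were split by level into resident cells, with *Lyve1* among their markers (95 and 435 cells), cells with *Arg1* and *Spp1* (0 and 134) and other cells (12 and 1267). These are ranges of a score and not separate types. Of the macrophage-like cells, 12 and 175 would have left the class with limits 25% stricter, and 7 and 293 lay within a like distance of the limit of the resident class. In macrophage-like cells the median cell had 0 CPM of T cell, NK cell and neutrophil markers in both libraries, 0 and 76.5 CPM of monocyte markers, 1487 and 0 CPM of cDC2 markers, 514 and 0 CPM of B cell markers and 0 and 1871 CPM of the *Arg1* *Spp1* markers. Their summed level of the neutrophil gene *S100a8* was 44.9 and 372 CPM, and that of the monocyte gene *Ly6c2* 0 and 65.1 CPM.

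In macrophage-like cells *Tnf*, *Il10*, *Nfkbia* and *Nfkbiz* were lower on AngII than at steady state, while *Tnfrsf1b* was higher and *Nfkb1* was higher by less. *Tnf* encodes the cytokine that starts much of the inflammatory response (chr17:35199381-35202007, minus strand). In macrophage-like cells it stood at 159 CPM at steady state (interval 137 to 184; 188 UMIs in 46 of 107 cells) and at 70.3 CPM on AngII (64.4 to 76.7; 514 UMIs in 213 of 1836 cells), a ratio of 0.441 (0.373 to 0.524). As the AngII cells were shallower, shares were compared after each cell was thinned to 1000 UMIs, which left out 2 and 882 cells. A *Tnf* UMI was then found in 11.4% of macrophage-like cells at steady state (6.05 to 19.1%) and in 5.45% on AngII (4.10 to 7.09%), against 43.0% and 11.6% without thinning. B cell-like cells were set beside them for comparison, not as cells without *Tnf*. Their share after thinning was 0 of 47, which allows up to 6.38%, and 3.64% (2 of 55). Before thinning it was 2.08% and 2.44%, with median depths of 5594 and 4142 UMIs beside 9704 and 1040 in macrophage-like cells. On AngII the thinned share of *Tnf* in macrophage-like cells lay within the interval of the B cell-like share (0.443 to 12.5%). Its CPM in macrophage-like cells was above that of B cell-like cells (8.05 to 41.3). Resident cells gave a like difference, at 128 and 65.3 CPM, a ratio of 0.510 (0.397 to 0.655).

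A large part of the *Tnf* UMIs came from few cells, which also held for *Tnfaip3*. At steady state 5 of the 107 macrophage-like cells held 47.3% of its UMIs, while the 5 deepest cells held 12.2% of all UMIs. One cell of the other macrophage class held 44 of 188 UMIs, and each library without its cell richest in *Tnf* gave a ratio of 0.502 (0.416 to 0.610). On AngII 92 cells, 5% of the class, held 76.5% of the *Tnf* UMIs and 35.5% of all UMIs.

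Among the classes of at least 20 cells on AngII, neutrophil-like cells had the highest *Tnf* level. It was 461 CPM (389 to 543; 144 UMIs in 35 of 84 cells), and its interval lay apart from that of the next class, cDC2-like dendritic cells with 84.5 CPM (72.4 to 98.0). The cDC2-like value rested on few cells, since 42 of its 175 UMIs came from 1 of 320 cells. The intervals of the cDC2-like cells and of the other, resident and *Arg1* *Spp1* macrophage classes overlapped in turn. In cDC1-like cells the level was 4.05 CPM (8 UMIs in 330 cells), of which 6.50 UMIs would be brought by free macrophage RNA if *Tnf* kept its macrophage ratio to *C1qa*, *C1qb*, *C1qc* and *Apoe*. By the same measure free macrophage RNA would account for 0.814 of 144 *Tnf* UMIs in neutrophil-like cells and 0.672 of 7 in B cell-like cells. In monocyte-like cells on AngII it would account for 20.2 of 45 *Tnf* UMIs, 33.2% of the *Nfkbiz* UMIs and 25.7% of the *Tnfaip3* UMIs. In T cell-like cells on AngII it would account for 3.75 of 22 *Tnf* UMIs. At steady state the 3 neutrophil-like cells held 0 *Tnf* UMIs of 13109 UMIs in all, so that a level up to 229 CPM was not detectable. The 13 cDC1-like cells of that library stood at 88.6 CPM (56.8 to 132). This value rested on 24 UMIs in 4 cells, with 11 of them in 1 cell.

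*Il6* encodes a cytokine of the acute phase (chr5:30013114-30019981, plus strand). It was found in 10 of 306 cells at steady state (29 UMIs) and in 42 of 4198 cells on AngII (57 UMIs). In macrophage-like cells the level was 2.54 CPM (3 UMIs) and 4.24 CPM (31 UMIs), a ratio of 1.67 whose interval ran from 0.520 to 8.52. At steady state 9 UMIs fell on monocyte-like cells, 7 of them in a single cell, and 13 on cells with markers of several classes. T cell-like and B cell-like cells held 0 UMIs in both libraries. The monocyte-like ratio was 0.0427 (0.00449 to 0.206), and 0.0819 (0.00139 to 1.57) without the richest cell of each library.

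*Il10* encodes the anti-inflammatory cytokine IL-10 (chr1:131019845-131024974, plus strand). Its UMIs at steady state lay in resident macrophage-like cells, at 46.0 CPM (33.8 to 61.1), and these 47 UMIs came from 5 of 95 cells, with 19 in 1 cell. Apart from 10 UMIs in cells with markers of several classes, no other UMI of *Il10* was found at steady state. On AngII the level in resident cells was 21.8 CPM (15.8 to 29.3; 43 UMIs in 24 of 435 cells), and was above the 10.7 CPM of the other macrophage class (7.89 to 14.1). The ratio of AngII to steady state was 0.333 in all macrophage-like cells (0.233 to 0.482), but 0.501 (0.324 to 0.797) when the richest cell of each library was left out, and 0.532 when every cell was given the same weight. After thinning, an *Il10* UMI was found in 1 of 105 and 11 of 954 macrophage-like cells, so the share of cells that held the gene was not told apart.

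**Figure D1:**
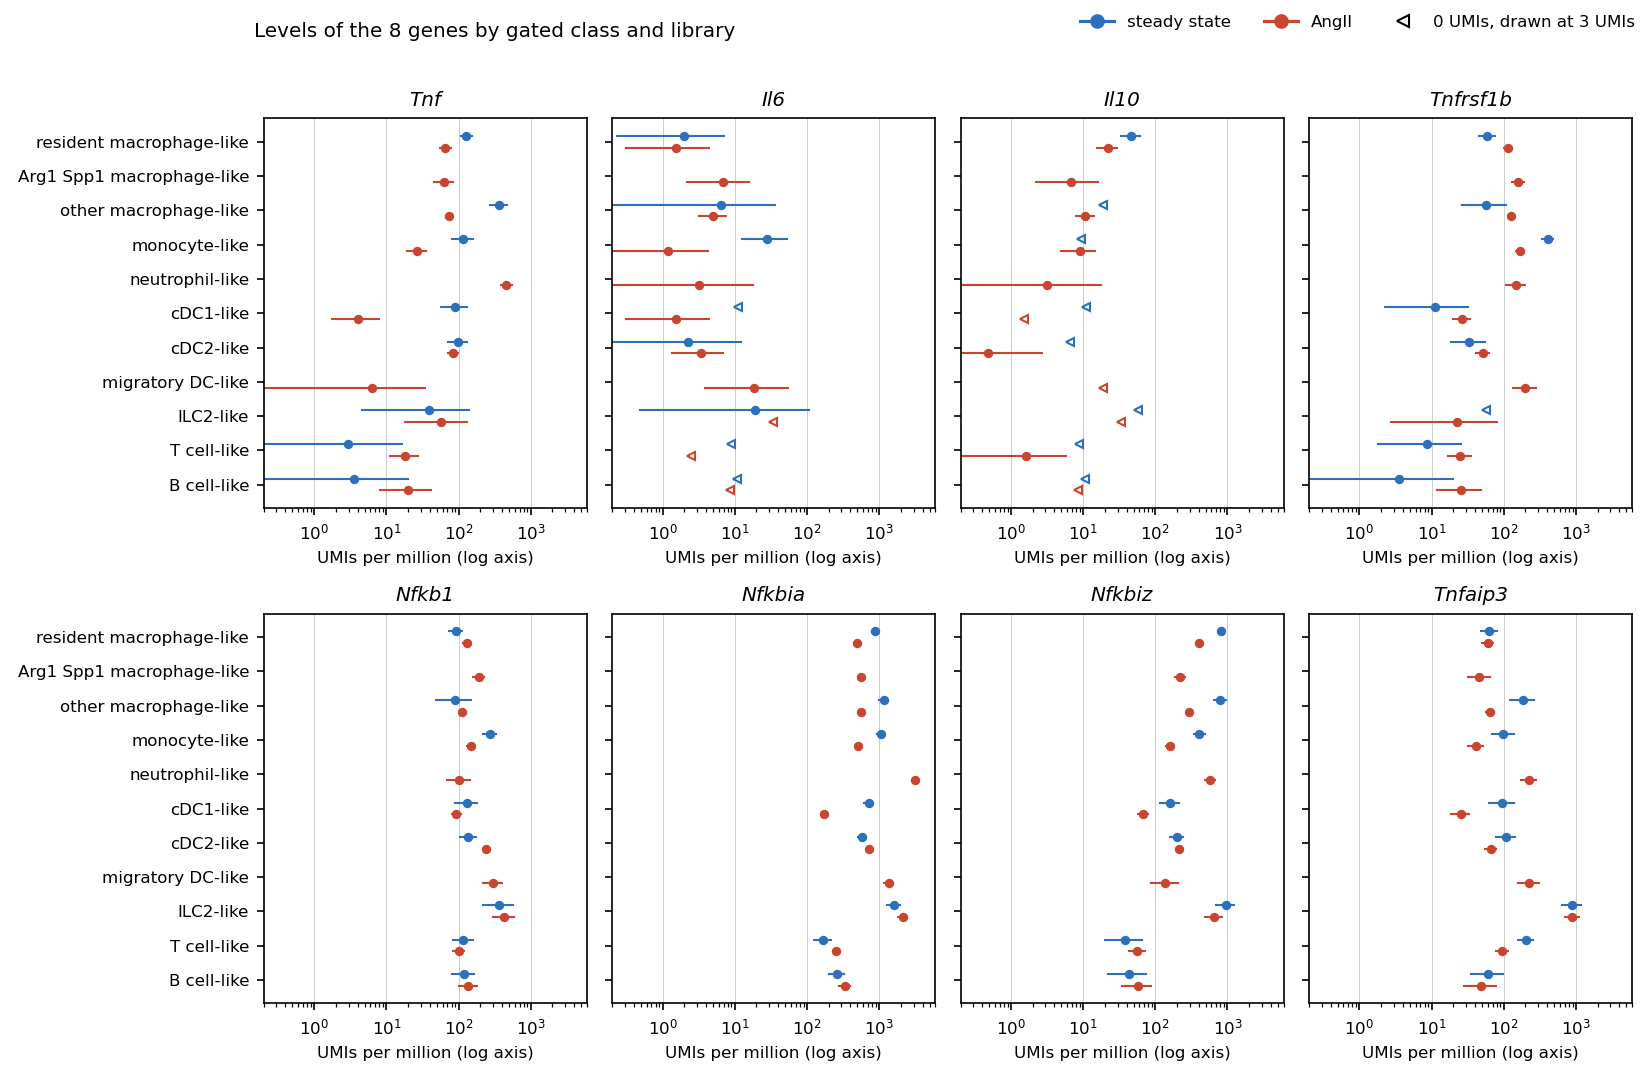
Levels of the 8 genes as CPM on a log axis, for gated classes of at least 5 cells, at steady state (blue) and on AngII (red). NK cell-like and mast cell-like cells are not drawn. Points are the summed level, bars the exact Poisson interval (cut at the left edge), and open triangles mark classes with 0 UMIs, drawn at the level of 3 UMIs. *Tnf* and *Nfkbia* peak in neutrophil-like cells on AngII (461 and 3149 CPM), and *Tnfaip3* in ILC2-like cells of both libraries.

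*Tnfrsf1b* encodes TNFR2, a TNF receptor of leukocytes (chr4:145213463-145246870, minus strand). In macrophage-like cells its level was 59.4 CPM at steady state (46.3 to 75.0; 70 UMIs) and 127 CPM on AngII (119 to 135; 927 UMIs), a ratio of 2.14 (1.68 to 2.77). At steady state it was found in 47 of 107 macrophage-like cells, beside 46 for *Tnf*. Its UMIs were spread more evenly than those of *Tnf*, with at most 4 in a cell at steady state and 19 on AngII. The 5% of cells richest in it held 21.4% and 49.2% of its UMIs, against 47.3% and 76.5% for *Tnf*. The thinned share of cells was 4.76% (1.56 to 10.8%) and 11.5% (9.57 to 13.7%), and the unthinned share 43.9% and 25.3%. In resident cells the ratio was 1.92 (1.44 to 2.59). Monocyte-like cells showed the opposite order, with 406 CPM in 23 cells at steady state (340 to 482) and 167 CPM in 296 cells on AngII (148 to 187), a ratio of 0.411 (0.333 to 0.509). At steady state this was the highest level of the classes with 20 cells or more, above the 59.6 CPM of resident cells (45.6 to 76.6), whereas on AngII the intervals of migratory dendritic-like, monocyte-like, *Arg1* *Spp1*, neutrophil-like and other macrophage classes overlapped from one to the next. T cell-like and B cell-like cells held 3 and 1 UMIs at steady state and 25.2 and 25.8 CPM on AngII.

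*Nfkb1* encodes a subunit of NF-kB (chr3:135584655-135691547, minus strand, overlapping the annotated gene Gm43430 on the same strand, so that reads there are uncertain). Among the classes of at least 20 cells on AngII, its level ran from 93.2 CPM in cDC1-like cells (80.2 to 108) to 299 CPM in migratory dendritic-like cells (220 to 396). The intervals of neighbouring classes in this order overlapped, while those of its ends lay apart. At steady state monocyte-like cells had 270 CPM (216 to 333), apart from cDC2-like cells with 136 CPM (104 to 174) and resident cells with 91.9 CPM (74.3 to 112). In macrophage-like cells it was 91.6 CPM at steady state (75.1 to 111) and 125 CPM on AngII (118 to 134), a ratio of 1.37 (1.12 to 1.69), although the thinned cells gave 0.819 (0.484 to 1.48). In cDC2-like cells the ratio was 1.76 (1.35 to 2.34), and in monocyte-like cells 0.557 (0.435 to 0.719). Macrophage-like cells with *Arg1* and *Spp1* had 190 CPM, 1.68 times the level of the other class (1.39 to 2.03).

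*Nfkbia* encodes IkBα (chr12:55489410-55492647, minus strand). In macrophage-like cells its level was 906 CPM at steady state (852 to 961; found in 94 of 107 cells) and 543 CPM on AngII (526 to 560; 865 of 1836 cells), a ratio of 0.599 (0.560 to 0.642). After thinning, the share of cells with a UMI was 51.4% (41.5 to 61.3%) and 36.2% (33.1 to 39.3%). Neutrophil-like cells on AngII had 3149 CPM (2955 to 3352) and held a UMI in 77 of 84 cells, and the intervals of migratory dendritic-like cells with 1351 CPM and of cDC2-like cells with 719 CPM lay apart below it. Among the classes of at least 20 cells on AngII, the 4 that followed, *Arg1* *Spp1*, other macrophage, monocyte and resident, overlapped from 567 to 499 CPM. The lowest level among the classes of this size was 175 CPM in cDC1-like cells (157 to 194). At steady state the 13 cDC1-like cells had stood at 716 CPM (619 to 824).

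*Nfkbiz* encodes IkBζ (chr16:55811375-55838899, minus strand). Its difference between the libraries in macrophage-like cells was larger than that of *Nfkbia* or *Tnfaip3*, with 801 CPM at steady state (751 to 854) and 313 CPM on AngII (300 to 326), a ratio of 0.390 (0.362 to 0.421). This value held from 0.355 to 0.425 under 10 other ways to choose, weigh or scale the cells. The thinned share was 46.7% (36.9 to 56.7%) and 26.0% (23.2 to 28.9%). Resident cells were the highest class of 20 cells or more at steady state with 803 CPM, and on AngII, with 397 CPM (370 to 426), they stood above the other macrophage class with 291 CPM (276 to 307) but below neutrophil-like cells with 576 CPM (495 to 667).

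*Tnfaip3* encodes A20 (chr10:19000910-19015657, minus strand), and its pattern was different from that of *Nfkbia*. In macrophage-like cells the level was 79.7 CPM (64.4 to 97.5) and 61.6 CPM (56.0 to 67.5), a ratio of 0.773 (0.617 to 0.975), which was 1.0 when every cell had the same weight. Resident cells had 63.6 and 60.3 CPM, a ratio of 0.948 (0.695 to 1.3). ILC2-like cells, innate lymphocytes that carry *Gata3* (1577 and 1125 CPM), were few, with 7 and 14 cells, but had 885 CPM (648 to 1180) and 889 CPM (704 to 1108). In them *Nfkbia* (1596 and 2116 CPM) and *Nfkbiz* (942 and 653 CPM) were also high, as was *Nfkb1* (365 and 428 CPM), and *Tnf* stood at 38.5 CPM (2 UMIs) and 56.3 CPM (5 UMIs; 18.3 to 131). T cell-like cells had 205 CPM of *Tnfaip3* at steady state (160 to 259) and 94.3 CPM on AngII (77.9 to 113), a ratio of 0.460 (0.339 to 0.629), and in these cells *Nfkbia* went the other way, from 167 to 256 CPM with a ratio of 1.54 (1.16 to 2.07), which turned to 0.799 (0.694 to 0.922) when clusters defined the class.

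To set the 8 genes against all others, genes with at least 50 UMIs over the macrophage-like cells of both libraries were compared. A level 2-fold or more lower on AngII was found for 3 of the 7 members that passed this limit (*Tnf*, *Il10* and *Nfkbiz*) and for 7.8% of 9273 genes. A level 2-fold or more higher was found for 1 of 7 (*Tnfrsf1b*) and for 8.37% of genes. *Il6* did not pass the limit. Without the richest cell of each library *Tnf* (0.502) and *Il10* (0.501) came just short of 2-fold, and with every cell of equal weight *Nfkbiz* was the 1 member 2-fold lower and no member was 2-fold higher. The median ratio was 0.599 over the 7 members and 0.980 over all genes. Within resident cells 2 of 7 were 2-fold lower (*Il10* and *Nfkbiz*), against 4.41% of 6731 genes, and 0 of 7 were 2-fold higher, against 5.54%. The *Il10* value rested on 5 cells at steady state and turned to 1.04 with every cell of equal weight and to 2.47 (0.317 to 111) after thinning. In monocyte-like cells 5 of 6 were 2-fold lower (*Tnf*, *Tnfaip3*, *Nfkbia*, *Nfkbiz* and *Tnfrsf1b*), against 6.77% of 5070 genes, and 0 of 6 were 2-fold higher, against 9.07%. This count rested in part on single cells of the 23 at steady state. One of them held 33 of the 37 *Tnf* UMIs and one held 157 of the 341 *Nfkbia* UMIs, and without the richest cell of each library the ratio was 1.60 for *Tnf* (0.573 to 6.21) and 0.813 for *Nfkbia* (0.692 to 0.959). The ratios of *Tnfaip3*, *Nfkbiz* and *Tnfrsf1b* were then 0.470, 0.428 and 0.429. In cDC2-like cells, of which 20 were found at steady state, *Nfkbia* (1.25; 1.09 to 1.43) and *Nfkb1* were higher on AngII and *Tnfaip3* was lower (0.615; 0.440 to 0.874).

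**Figure D2:**
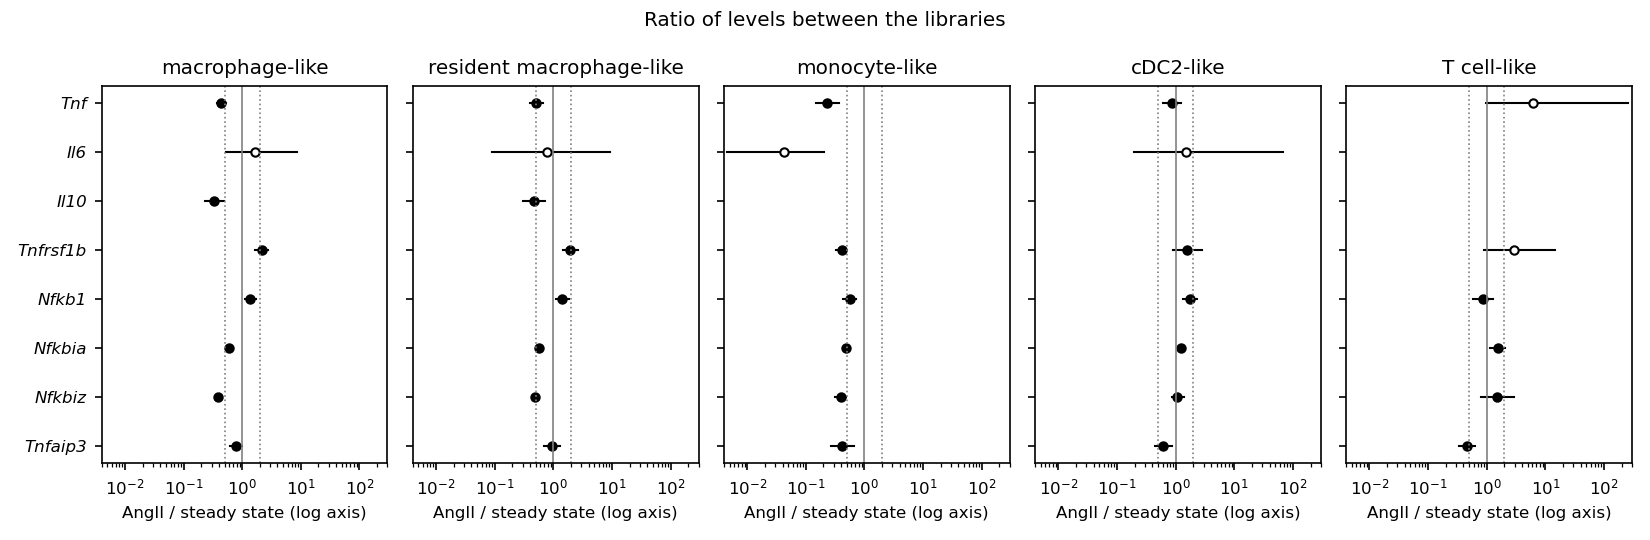
Ratio of the AngII level to the steady state level of each gene on a log axis, in 5 classes with at least 20 cells in both libraries. Points are ratios with exact intervals, open points rest on 3 or fewer UMIs in 1 library, genes at 0 UMIs in 1 library are not drawn, and dotted lines mark 2-fold. *Tnfrsf1b* stands at 2.14 in macrophage-like cells and 0.411 in monocyte-like cells.

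Depth and the genes that tissue dissociation switches on also differed between the libraries. All 15 immediate early and dissociation genes of a list (*Fos*, *Jun*, *Atf3* and others) had a ratio below 1 in macrophage-like cells. The ratios ran from 0.253 for *Jun* and 0.262 for *Atf3* to 0.790 for *Junb* and 0.921 for *Nr4a1*. Against 7.8% of all genes, 7 of the 15 were 2-fold lower. Their summed level was 22681 CPM at steady state and 11934 CPM on AngII, and the median cell had 24050 and 11032 CPM. It was 15087 and 10774 CPM in monocyte-like cells and 12728 and 10778 CPM in cDC2-like cells. The tissue had been digested with warm enzymes before the sort, and the part of these genes in the lower *Tnf*, *Il10*, *Nfkbia* and *Nfkbiz* was not tested. In cells with at least 2000 UMIs the ratios were 0.438 for *Tnf* (0.368 to 0.522), 0.339 for *Il10* (0.234 to 0.495), 0.597 for *Nfkbia* (0.557 to 0.640) and 0.396 for *Nfkbiz* (0.366 to 0.429). With every cell of equal weight the ratios were 0.538 for *Tnf*, 0.532 for *Il10* and 0.355 for *Nfkbiz*.

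The other genes of the pathway differed in both directions. Over all 9273 genes tested, 8.37% were 2-fold higher on AngII and 7.8% were 2-fold lower. The lists are short, so that counts of 1 or 2 calls are given as a description. Resident cells made up 95 of the 107 macrophage-like cells at steady state and 435 of the 1836 on AngII. The part of this make-up in the ratios of the lists was not tested. Of the 4 other NF-kB subunits, all passed the UMI limit and 0 differed 2-fold, with ratios from 0.787 for *Rel* and 0.913 for *Rela* to 1.21 for *Relb* and 1.41 for *Nfkb2*. Of the 4 other IkB proteins, 2 were 2-fold higher on AngII, the nuclear protein *Bcl3* (2.71; 1.81 to 4.24) and *Nfkbie* (2.34; 1.47 to 3.95), while *Nfkbib* had a ratio of 1.42 and the nuclear *Nfkbid* one of 0.561 (0.481 to 0.657). Of 21 kinases and adaptors 4 were 2-fold higher, among them *Traf1* (4.58; 2.46 to 9.66) and *Ikbke* (3.71; 1.84 to 8.73), and 0 were 2-fold lower, with *Map3k7* lowest (0.690) and *Traf5* next (0.828). Of 13 feedback regulators 2 were higher, *Tnip3* (4.03; 2.82 to 5.97) and *Tnip1* (2.02; 1.21 to 3.6), whose products bind A20, and 1 was lower, the deubiquitinase gene *Otud7b* (0.276; 0.174 to 0.445), with *Socs1* at 0.516.

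Along the cytokine axes 1 gene per list was 2-fold higher. The lists are so short that a single call lies near the shares of all genes (8.37% higher and 7.8% lower). In the TNF ligand and receptor list 1 of 7 genes tested was 2-fold higher, the lymphotoxin gene *Ltb* (3.04; 1.44 to 7.72), followed by *Adam17*, the protease that sheds TNF and its receptors (1.91; 1.52 to 2.44). *Tnfrsf1a*, the gene of the other TNF receptor, had a ratio of 0.985 (0.835 to 1.17) and *Tnfsf12* one of 0.741. In the IL-6 list 1 of 6 was higher, *Osm*, which encodes the related cytokine oncostatin M (4.14; 2.91 to 6.09), ahead of the feedback gene *Socs3* (1.59), and the receptor genes *Il6st* (0.546) and *Il6ra* (0.707) were lowest. In the IL-10 list 1 of 6 was higher, *Il4ra* (3.29; 2.63 to 4.16), which encodes a chain of the IL-4 receptor and not of the IL-10 receptor. *Tyk2* (1.27) came next, and the IL-10 receptor gene *Il10ra* had a ratio of 1.12 (0.925 to 1.36). In this list 1 gene was lower, *Maf*, a transcription factor that promotes *Il10* (0.421; 0.401 to 0.442), before the receptor gene *Il10rb* (0.786). The summed level of the IL-10 list was 2468 and 1528 CPM in macrophage-like cells, but 2692 and 2225 CPM in resident cells. On AngII it was 1289 CPM in the other macrophage class. The part of the class make-up in the *Maf* ratio was not tested.

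Targets of NF-kB differed in both directions. Of 19 tested, 8 were 2-fold higher on AngII and 3 were 2-fold lower, beside 8.37% and 7.8% of all genes. The median ratio of the 19 was 1.36. The highest were the IL-1 gene *Il1a* (24.9; 6.82 to 206), with 2 UMIs at steady state, and *Il1rn*, which encodes the IL-1 receptor antagonist (21; 10.1 to 52.3). The higher *S100a8* and *Ly6c2* of macrophage-like cells on AngII stood beside these values, and their part in them was not tested. The lowest were the chemokine genes *Cxcl1* (0.281; 0.231 to 0.343) and *Ccl2* (0.433; 0.412 to 0.456). Of the 5 genes of cytokine mRNA decay 0 differed 2-fold, with *Elavl1* (1.5) and *Zfp36* (0.844) highest and *Zfp36l1* (0.522) and *Rc3h1* (0.615) lowest.

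**Figure D3:**
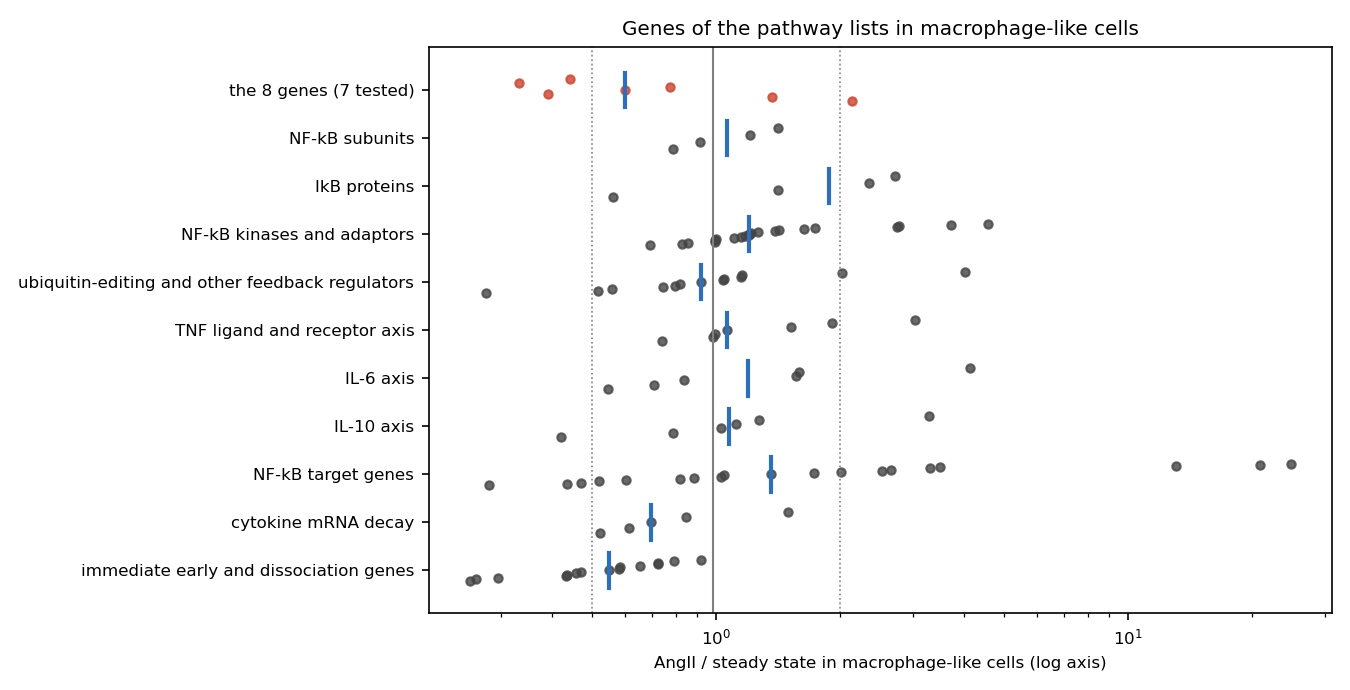
Ratio of AngII to steady state in macrophage-like cells on a log axis for every gene with at least 50 UMIs, by list. Points are genes, blue bars are medians of a list, the grey line is the median of all 9273 genes (0.980) and dotted lines mark 2-fold. The members have a median of 0.599 and the immediate early genes one of 0.549, while the NF-kB targets spread from 0.281 to 24.9.

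Whether the brakes were higher in the cells that held *Tnf* was asked within each library. The 46 macrophage-like cells with a *Tnf* UMI at steady state had 1.56 times the *Nfkbia* level (1.38 to 1.77) and 1.97 times the *Nfkbiz* level (1.72 to 2.27) of the 61 cells without, with 1098 against 702 CPM and 1053 against 534 CPM. On AngII the 213 cells with *Tnf* had 1.62 times the *Nfkbia* level (1.52 to 1.73), 1.44 times the *Nfkbiz* level (1.33 to 1.57) and 1.44 times the *Tnfaip3* level (1.18 to 1.74). At steady state *Tnfaip3* stood at 0.730 (0.474 to 1.12). *Nfkb1* (1.23 and 0.939), *Tnfrsf1b* (0.842 and 1.12) and *Il10* (0.905 and 1.15) had intervals that held 1 in both libraries. None of the 5 and 6 members tested was 2-fold higher in these cells, as were 1.98% and 0.894% of genes. The cells with *Tnf* were deeper, with medians of 11213.5 against 8262 UMIs and 6529 against 959 UMIs, and had 1.14 and 1.11 times the level of the immediate early genes, and the part of either in the ratios was not tested. *Tnf* and *Il10* UMIs met in 2 and 16 cells.

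**Figure D4:**
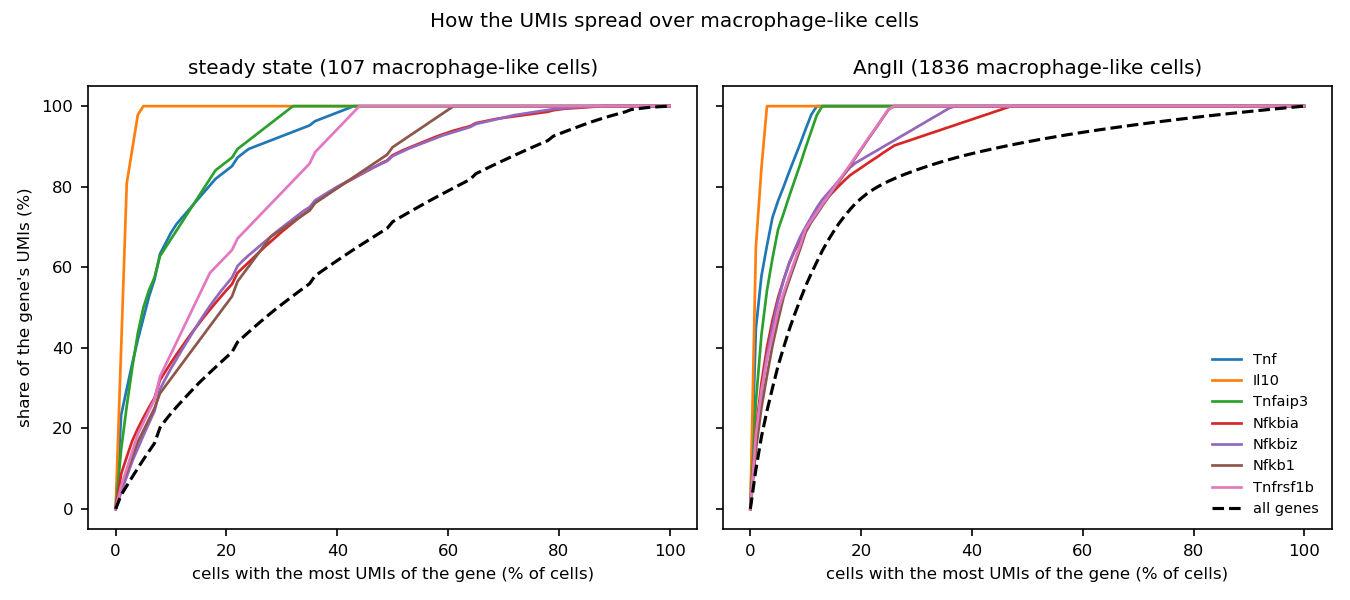
Share of a gene's UMIs (vertical axis, %) held by the macrophage-like cells richest in that gene (horizontal axis, % of cells), at steady state and on AngII, with all genes as the dashed line. For *Il10*, *Tnfaip3* and *Tnf*, 5% of cells hold 100%, 50% and 47.3% of the UMIs at steady state. For *Nfkbia* it is 22.7%, and the deepest 5% of cells hold 12.2% of all UMIs.

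A cell was called *Yfp*+ when it held at least 1 UMI of the reporter, which 75.7% of macrophage-like cells did at steady state and 16.5% on AngII. In B cell-like cells the share was 0 of 48, which allows up to 6.25%, and 2.44%, and in monocyte-like cells 8.70% and 1.69%. The reporter was not confined to macrophage-like cells. At steady state 6 of 7 ILC2-like cells and 4 of 20 cDC2-like cells held a reporter UMI. The reporter level of ILC2-like cells was 308 and 326 CPM, above the 237 and 112 CPM of macrophage-like cells. A cell without a UMI may still carry the reporter, so *Yfp*- here means not detected. At steady state *Tnf* stood at 183 CPM in 81 *Yfp*+ macrophage-like cells (180 UMIs) and at 40.4 CPM in 26 *Yfp*- cells (8 UMIs), a ratio of 4.54 (2.25 to 10.7). Without the richest cell of each class it was 5.22 (2.18 to 16.3), and under the looser gate 2.69. The 47 *Il10* UMIs lay in 5 *Yfp*+ cells, and on AngII the *Il10* ratio was 1.18 (0.776 to 1.80). *Nfkbia* (0.962), *Nfkbiz* (1.08), *Tnfaip3* (1.15), *Nfkb1* (1.47) and *Tnfrsf1b* (1.37) had intervals that held 1. On AngII the *Tnf* ratio was 1.29 (1.08 to 1.54), the *Nfkbiz* ratio 1.33 (1.22 to 1.44) and the *Nfkbia* ratio 0.965 (0.905 to 1.03). *Yfp*+ cells were deeper, with medians of 10682 against 6874.5 UMIs at steady state and 5328 against 919 UMIs on AngII, and the part of depth in these ratios was not tested.

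Resident cells were set against the other macrophage class of the same library. On AngII *Il10* was 2.04 times (1.32 to 3.14) and *Nfkbiz* 1.36 times (1.25 to 1.49) as high in resident cells, while *Nfkbia* was at 0.894 (0.830 to 0.963) and *Tnf* at 0.886 (0.717 to 1.09). At steady state the other class held 12 cells, and the *Tnf* ratio of 0.352 (0.256 to 0.490) was 1.19 (0.669 to 2.30) without the richest cell of each class.

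The genes most like each member were sought over 15 points, the classes of at least 20 cells in each library, by Pearson's r of log2 CPM with 10 CPM added, among 2958 genes with at least 200 UMIs in each library. The points share 2 libraries and differ in depth, and r is given as a description. *Tnf* was most like the immediate early gene *Ier2* (0.94), *Wsb1* (0.90) and *Lilrb4a* (0.89), and *Nfkbia* most like *Junb* (0.91), the kinase gene *Map3k8* (0.88) and *Stat6* (0.87). *Nfkbiz* was most like *Fgd4*, *Wsb1* and *Gm26532* (0.95, 0.95 and 0.94), *Tnfaip3* like *Ppp1r12a*, *Wipf1* and *Myh9* (0.85, 0.84 and 0.81), *Nfkb1* like *Myo1g*, *Cd47* and *Ciao2a* (0.83, 0.78 and 0.77) and *Tnfrsf1b* like *Aup1*, *Clec7a* and *N4bp1* (0.88, 0.87 and 0.87). *Il6* and *Il10* had too few UMIs.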

How the data were processed

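Per the labels and the methods, the authors mapped the reads with Cell Ranger 3.1.0 to GRCm38.p6 and the GENCODE M24 annotation, extended by the reporter. The deposited values are filtered matrices of whole UMI counts, not normalized. The 2 matrices held 346 and 4419 barcodes with 4009678 and 20481854 UMIs at steady state and on AngII. Cells were kept from 300 to 6500 genes and up to 5% of mitochondrial UMIs. Doublets were left in.

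A cell entered a class when it held at least 2 of its markers, at 0.2 times or more of the pooled marker level of cells led by that class and 1.5 times or more that of the next class. Macrophage-like cells at 0.5 times or more of the reference level of resident or of *Arg1* *Spp1* markers formed those groups. Counts were summed per class and given as CPM, with exact Poisson, conditional binomial (ratios) and Clopper-Pearson (shares) intervals. No p-value was computed, since each condition had 1 library, and a ratio of 2 or 0.5 served as the call. A count of 0 gives a limit at 3 UMIs. Thinning drew UMIs without replacement. The steps were tested on simulated data, in which cells were drawn from the pooled profile of their gated class with counting error only. Such data cannot check the intervals for genes held by few cells, such as *Tnf* and *Il10*.

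The 8 genes, the marker and gene lists and the gate limits were chosen with earlier results of these data known. Genes named are the members, in each list the 2 highest and 2 lowest ratios, the 3 most like each member, markers, and *Il10ra*. Coordinates of genes follow GENCODE M21 (GRCm38; gene IDs identical to the files). Alternatives changed the filter, gate, classes (SCTransform and Louvain clusters at resolution 0.4, in Seurat 5.3.0 with sctransform 0.4.2, R 4.3.3), scaling, weights, depth, *Yfp* call and UMI limit. Counting used SciPy 1.17.1, NumPy 2.4.6 and pandas 2.3.3 under Python 3.11.15, and plots Matplotlib 3.10.9.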

Additional observations from a re-analysis of the deposited data

Results flagged for a closer look

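For 3 of the genes the ratio of AngII to steady state lay on opposite sides of 1 in different classes, with intervals that did not hold 1. Each class had 1 library per condition, so the difference between classes was not tested. *Nfkbia* was higher on AngII in cDC2-like cells (1.25) and T cell-like cells (1.54) and lower in macrophage-like cells (0.599) and monocyte-like cells (0.488), but the cDC2-like value turned to 0.753 after thinning and the T cell-like value to 0.799 with clusters as classes. *Nfkb1* was higher in macrophage-like cells (1.37) and cDC2-like cells (1.76) and lower in monocyte-like cells (0.557), and the macrophage-like value turned to 0.819 after thinning. *Tnfrsf1b* was higher in macrophage-like cells (2.14) and B cell-like cells (7.23, from 9 and 1 UMIs) and lower in monocyte-like cells (0.411). The make-up of the monocyte-like class differed between the libraries, with *Ly6c2* at 260 and 1121 CPM, and its part in the 3 monocyte-like ratios was not tested.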

How the results depend on the processing

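Of 79 recomputed ratios of the members in macrophage-like cells, 69 stayed within the interval of the value above, 8 moved out of it, and 2 of those whose interval did not hold 1 changed direction. With every cell of equal weight the ratio was 0.538 for *Tnf*, 0.532 for *Il10*, 1.0 for *Tnfaip3* and 0.355 for *Nfkbiz*. With cells thinned to 1000 UMIs it was 1.43 for *Il10* (1 cell with a UMI at steady state), 0.819 for *Nfkb1*, 0.532 for *Nfkbia* and 0.425 for *Nfkbiz*. *Il6*, whose interval held 1, was at 0.455 under the looser gate and at 0.700 with clusters as classes, and leaving out the richest cell gave 0.501 for *Il10*. The number of members 2-fold higher was 0 without the cell filter, under the looser gate and with equal weights, and the number 2-fold lower was 1 (*Nfkbiz*) with equal weights. Genes 2-fold higher and lower numbered 1463 and 1690 from 10 UMIs and 380 and 278 from 200 UMIs, and 244 were lower after thinning, all with another number of genes tested.

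In other comparisons the direction changed for *Il10* in resident cells (1.04 with equal weights, 2.47 thinned), for *Tnf* (1.60 without the richest cell) and *Tnfaip3* (1.07 thinned) in monocyte-like cells, for *Nfkbia* in cDC2-like cells (0.753 thinned) and in T cell-like clusters (0.799), and for resident against other cells at steady state in *Tnf* (1.19 without the richest cell) and *Nfkbia* (1.23 without it, 1.14 thinned). The causes were not tested. Median-of-ratios scaling shifted all genes by -0.03 (log2). No paired analysis was possible because each condition had 1 library. In depth, 45.5% of AngII cells had fewer than 1000 UMIs, which limits shares and rare transcripts such as *Il6*.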
